A study of Drosophila melanogaster with 8 samples.

Results

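Scaffold 2h is the sequence that the array files list under that name, read here as heterochromatin of the second chromosome. It was covered by 2217 of the 237699 genomic probes on the array design that carries it, and of the 475395 genomic probes of the whole series. Members were all genomic probes whose listed position lies on 2h, and no measured value entered the choice. Of these, 2215 had a value in all 4 samples, and 2 were left out because the scanner software marked an outlier spot. H3K36me3 ChIP-chip had been performed on whole *Drosophila melanogaster* embryos collected 2 to 4 hr after egg laying. The *dkdm4a* mutant (2 biological samples) carries the SUPor-P element insertion Kdm4AKG04636 on a y1 w67c23 background. Wild type (2 biological samples) is a line made from this mutant by mobilizing the P-element, in which excision had been selected by eye color and checked by PCR. Each genotype is thus represented by a single line, the collections from population cages mix all cell types of the embryo, and a value averages over their nuclei. IP DNA obtained with an abcam antibody against H3K36me3 was labeled with Cy5 and input DNA with Cy3 after amplification by ligation-mediated PCR, without a dye swap. Dye and IP therefore cannot be told apart within an array. Both genotypes of replicate 1 were scanned on the same day, and both of replicate 2 on another.

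Trimethylation of lysine 36 on histone H3 is laid down behind elongating RNA polymerase II and marks the bodies of transcribed genes. dKDM4A belongs to a family of demethylases that remove this mark. Pericentric heterochromatin is rich in repeats, carries H3K9 methylation and the protein HP1a, and in *Drosophila* also holds active genes that lie among the repeats. A scaffold such as 2h is therefore a stretch where a mark of transcription and a silent chromatin environment meet. The array files hold neither probe sequences nor gene names and name no genome build, so positions are given as the files list them and no gene was assigned.

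The 2h probes were 45 to 60 nt long and extended over 1305 kb, from position 382756 to 1688157. Neighbouring probes started a median of 139 bp apart, against 220 bp on 2L and on 2R, but they were clustered. A new run was counted where neighbours lay more than 5 kb apart, which gave 58 runs, the largest of 296 probes, and the widest step between neighbours was 56560 bp. Spots on 2h were readily measured in both channels. Of the 2h spots, 96.4% to 98.1% were well above background in the input channel and 91.7% to 96.5% in the IP channel, over the 4 samples, and none was saturated. The median brightness of the IP channel on 2h was 437.2 and 344.3 units in the *dkdm4a* mutant replicates 1 and 2, against 325.6 and 243.0 units in wild type replicates 1 and 2. The mutant was the brighter genotype in each replicate. Replicate 2 was dimmer than replicate 1 in both genotypes.

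H3K36me3 levels, given throughout as log2 IP/input with the median of each array set to 0, were high over 2h. The median 2h probe was at 1.46 and 1.84 in the mutant replicates, against 1.08 and 1.33 in the wild type replicates. The middle probe of the euchromatin on the same arrays, meaning 2L, 2R and 3R outside the centromere-proximal 1 Mb, was at -0.03 to -0.04 in all 4 samples. At the upper end of the distribution the compartments were closer to each other. The share of probes above 4 was 10.0% and 18.0% on 2h in the mutant and 9.3% and 14.2% in wild type. In the euchromatin it was 12.7% and 15.1% in the mutant and 12.7% and 14.6% in wild type. Most 2h probes lay above the array median: 95.0% and 97.0% were above 0 in the mutant, and 87.7% and 92.6% in wild type. In the euchromatin 48.6% to 48.9% were above 0. A value of 0 is the array median and does not mark absence of H3K36me3. Averaged over probes, 2h exceeded the euchromatin by 1.09 and 1.38 in the mutant and by 0.80 and 0.97 in wild type, so that 2h was higher on 4 of 4 arrays.

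**Figure D1:**
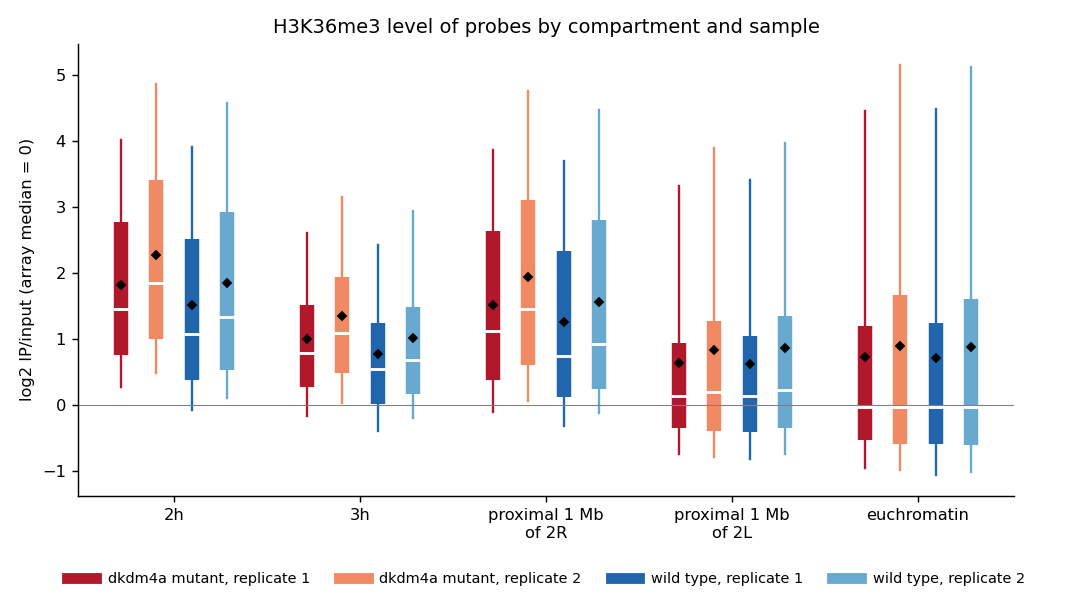
Level of H3K36me3 (log2 IP/input, array median at 0) by compartment, with the 2 *dkdm4a* mutant samples left of the 2 wild type samples. Thick bars span the 25th to 75th percentile of the probes, thin lines the 10th to 90th, the white line is the median and the diamond the mean. The 2h medians of 1.46 and 1.84 (mutant) and 1.08 and 1.33 (wild type) lie above those of the other compartments in the same sample.

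To ask whether loss of dKDM4A was accompanied by a change of H3K36me3 over 2h, the mean over its probes was compared between genotypes. It was 1.82 and 2.27 in the *dkdm4a* mutant, against 1.51 and 1.84 in wild type. The mutant was higher within each replicate, by 0.31 in replicate 1 and by 0.43 in replicate 2 (mean 0.37 ± 0.09, SD, n = 2), but the groups overlapped because mutant replicate 1 lay below wild type replicate 2. The exact permutation test over the 4 samples gave p = 0.667 (two-sided, n = 2 each). This design allows no p below 0.33, and none below 0.5 when genotypes are exchanged within replicates, which was the value obtained. The size of the change depended on which sample was present. It was 0.60 without mutant replicate 1, 0.14 without mutant replicate 2, 0.21 without wild type replicate 1 and 0.54 without wild type replicate 2, comparisons that set samples of different scan days against each other.

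Relative to the euchromatin of the same array, the groups no longer overlapped. 2h stood 1.09 and 1.38 above the euchromatin in the mutant and 0.80 and 0.97 above it in wild type, a change of 0.29 and 0.41 in the replicates (mean 0.35 ± 0.09, SD, n = 2). The exact permutation p was 0.33, the smallest the design can give. Without mutant replicate 2 this change was 0.21. The euchromatin itself moved by 0.02 in both replicates. Loess normalization within each array, which removes a dependence of the ratio on brightness, put the change of 2h relative to the euchromatin at 0.18.

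The ratio moved through the IP channel. The mean log2 IP signal of 2h relative to the array median was 1.68 and 1.72 in the mutant and 1.41 and 1.31 in wild type, a difference of 0.27 in replicate 1 and 0.41 in replicate 2 (exact permutation p = 0.33, n = 2 each, the smallest possible). Both mutant samples were above both wild type samples. The mean log2 input signal was -0.25 and -0.67 in the mutant and -0.25 and -0.68 in wild type. Input thus differed between replicates but hardly between genotypes, with differences of -0.003 and 0.0026.

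**Figure D2:**
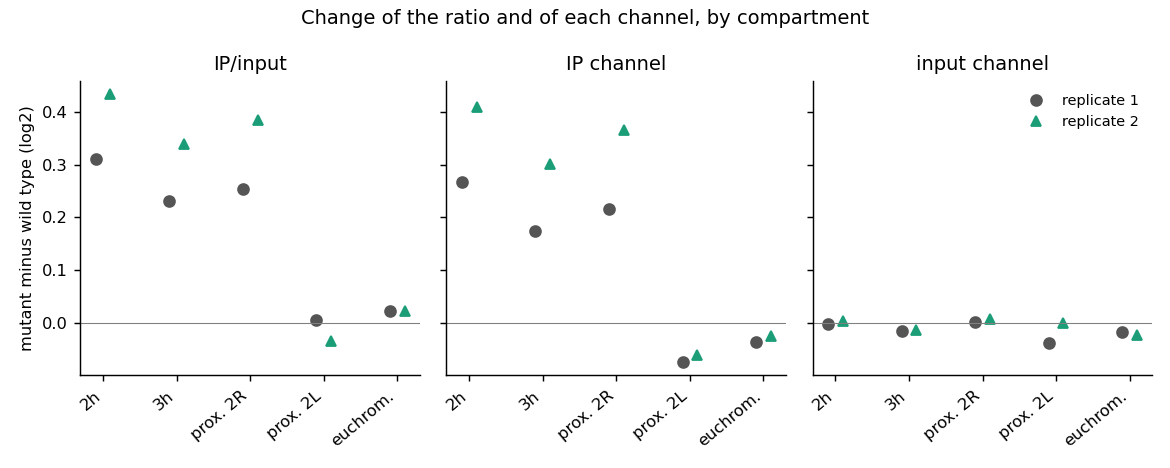
Difference between *dkdm4a* mutant and wild type (log2) of IP/input, of the IP channel and of the input channel, for replicate 1 (circles) and replicate 2 (triangles). On 2h the IP channel differed by 0.27 and 0.41 and the input channel by -0.003 and 0.0026. "Prox." stands for the centromere-proximal 1 Mb and "euchrom." for the euchromatin of the same array design.

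The change of 2h was next set beside that of the most similar compartments on these arrays. The heterochromatic scaffold 3h of the third chromosome changed by 0.23 and 0.34 in the replicates, and the proximal 1 Mb of 2R by 0.25 and 0.38. The change of 2h was the larger in both replicates, by 0.08 and 0.09 over 3h (exact permutation p = 0.667) and 0.06 and 0.05 over proximal 2R (p = 0.33, the smallest possible, exact permutation test). The proximal 1 Mb of 2L differed, with a change of 0.01 and -0.03. The change of 2h exceeded that of proximal 2L by 0.31 and 0.47 (exact permutation p = 0.33, the smallest possible).

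The shift involved most 2h probes and not a few of them. Of the 2215 probes, 1439 (65.0%) were higher in the mutant in both replicates and 172 (7.8%) were lower in both. Over all probes of the array design these shares were 30.5% and 24.8%. Both mutant samples lay above both wild type samples at 934 probes (42.2%, against 15.5% over the design) and below them at 34 (1.5%, against 11.7%). A difference of more than 1 in favour of the mutant in both replicates was seen at 71 probes (3.2%, against 0.536% over the design). These traits were shared by the most similar compartments. On 3h and proximal 2R, 54.9% and 60.7% of probes were higher in the mutant in both replicates. Both mutant samples lay above both wild type samples at 36.6% and 37.1%, and 3.1% and 2.5% differed by more than 1. Single probes were noisy. The mt/WT value of a probe in replicate 1 correlated with that in replicate 2 with Pearson's r of 0.41 on 2h (2215 probes). It was 0.326 on 3h, 0.24 on proximal 2R and 0.216 in the euchromatin. Neighbouring 2h probes resembled each other, with r of 0.559 in replicate 1 and 0.49 in replicate 2, against 0.205 and 0.178 in the euchromatin. On 3h these values were 0.422 and 0.419, and on proximal 2R 0.306 and 0.304. Probes of 2h lie closer together than euchromatic ones; the part of spacing in these correlations was not tested.

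With arrays centred on their median and no further normalization, the low end of the 2h distribution differed more between genotypes than the high end. The 10th percentile of the probes was at 0.27 and 0.48 in the mutant, against -0.08 and 0.10 in wild type, with no overlap of the groups. The 90th percentile was at 4.02 and 4.86 in the mutant, against 3.91 and 4.57 in wild type, and there the groups overlapped. The SD over probes was correspondingly narrower in the mutant of each replicate, at 1.40 and 1.63, against 1.50 and 1.68 in wild type. This order of the low and the high end did not hold under every processing. With loess, probes in the lowest tertile of wild type level changed by 0.06 in replicate 2 and 0.09 in replicate 1. Those in the highest tertile changed by 0.35 and 0.19.

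Averaged over runs of probes or over 100 kb, the mutant was the higher genotype along nearly the whole scaffold. Single probes and 2 kb windows were less uniform. There were 39 runs of 10 or more probes, which hold 2155 of the probes. The mean was higher in the mutant in both replicates in 37 and mixed in 2, and no run was lower in both. Runs of other compartments were not counted, so this number has no share over the array design beside it. In all 13 intervals of 100 kb with at least 60 probes the mutant was higher in both replicates, against 55.8% of such intervals over the array design. The strongest interval was 2h:1126455-1200010 with 192 probes. It averaged 1.73 and 2.15 in the mutant and 1.23 and 1.56 in wild type, a difference of 0.50 and 0.60. The weakest was 2h:1345808-1400026 with 119 probes, at 1.97 and 2.42 in the mutant and 1.91 and 2.26 in wild type, a difference of 0.06 and 0.17. The wild type level did not order these intervals simply, since the interval with the highest level, 2h:909009-987675, was still higher in the mutant by 0.27 and 0.46, at a wild type mean of 3.03.

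Both mixed runs were among those with the highest wild type levels. The run 2h:580853-593459 (63 probes) was at 3.16 and 3.91 in the mutant and 3.19 and 3.77 in wild type. The run 2h:1345808-1366418 (68 probes) was at 3.04 and 3.70 in the mutant and 3.04 and 3.56 in wild type. In both, the genotypes differed by at most 0.02 in replicate 1 and by 0.14 in replicate 2. The longest run, 2h:1169703-1250968 with 295 measured probes, differed from these. It was at 1.95 and 2.53 in the mutant and 1.61 and 2.00 in wild type, a difference of 0.34 and 0.54. Runs of higher level than the mixed ones varied. The run 2h:1268611-1274200 (36 probes, wild type mean 3.58) was higher in the mutant by 0.51 and 0.65. The run 2h:720986-730386 (25 probes, wild type mean 3.84) was higher by 0.02 and 0.05.

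**Figure D3:**
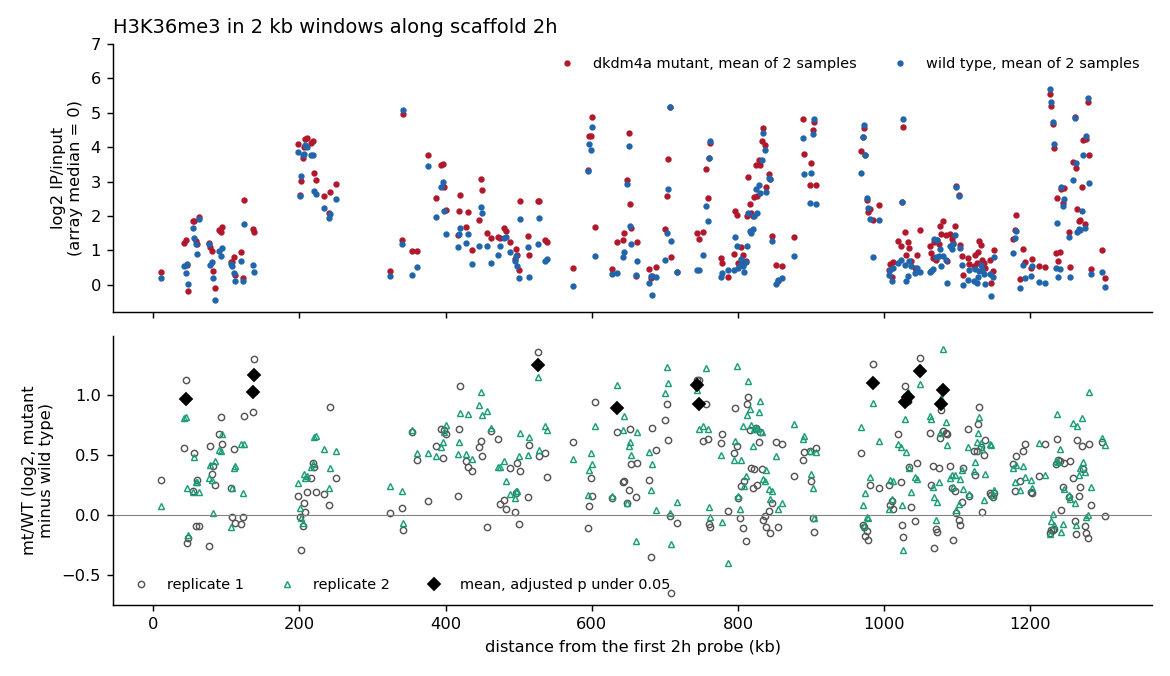
Top, mean log2 IP/input of each 2 kb window along 2h in the *dkdm4a* mutant and in wild type. Bottom, mt/WT of the same windows in replicate 1 (circles) and replicate 2 (triangles), with the 13 windows that passed the adjusted threshold as diamonds, against the distance in kb from the first 2h probe. Most windows lie above 0 in the lower panel. The 13 windows lie between positions 426001 and 1464000 and are unevenly spaced, with 3 pairs side by side.

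To test single stretches, probes were averaged in 2 kb windows with at least 3 probes. Of the 252 windows of 2h, 13 rose in the *dkdm4a* mutant and 0 fell. Over all 57266 windows of the series, 0.354% rose and 0.173% fell. On 3h, 21 of 427 windows rose (4.9%, against 5.2% on 2h) and 0 fell. These calls come from limma without a term for the replicate, with Benjamini-Hochberg adjustment at 0.05. At an unadjusted p under 0.05 the limma fit gave 83 increased windows on 2h (3.74% over the series) and 0 decreased ones (2.07%). All 13 windows of 2h had both mutant samples above both wild type samples, values that also entered the call. Over all 252, this held for 115 (against 15.9% of all windows) and the reverse for 2 (against 11.7%). The trait was shared by 3h, where it held for 197 of 427 windows and the reverse for 14. Higher in both replicates were 190 windows of 2h (75.4%, against 33.3% of all windows and 68.15% on 3h). Lower in both were 18 (7.1%, against 27.8% and 8.2%). A fit with the replicate as a block takes out the mean difference between the replicates, scan day included. It leaves 1 residual degree of freedom per window, and in it 125 windows rose (5.4% over the series) and 3 fell (3.73%). The number also depended on single samples. It was 4 without mutant replicate 1, 1 without mutant replicate 2, 0 without wild type replicate 1 and 2 without wild type replicate 2, and 0 windows passed after loess (15 at an unadjusted p under 0.05).

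The 13 windows had low to moderate wild type levels, between 0.27 and 1.18, and rose by 0.89 to 1.25. The same wild type values entered the change by which they were called. The 125 windows that rose with the replicate block had wild type levels from -0.30 to 4.59, with a median of 1.13. Of the 13 windows, 9 had at least 5 probes. The largest rise among them was in 2h:1430001-1432000 (8 probes), at 1.37 and 1.81 in the mutant and 0.06 and 0.72 in wild type (change 1.20 ± 0.25, SE, adjusted p = 0.000826, limma). The next, 2h:520001-522000 (5 probes), was at 1.65 and 1.41 in the mutant and 0.35 and 0.38 in wild type (change 1.17 ± 0.25, SE, adjusted p = 0.0011, limma). In both windows the lower mutant sample lay well above the higher wild type sample, which the choice by this difference favours. The window that adjoins the second, 2h:518001-520000 (8 probes), was at 1.36 and 1.86 in the mutant and 0.50 and 0.67 in wild type (change 1.03 ± 0.25, SE, adjusted p = 0.0175, limma). The 2 windows form a single stretch of increase. After loess the changes of these 3 windows were 0.25, 0.46 and 0.83 in the order given, so that the leading window was no longer ahead.

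A further adjoining pair was 2h:1126001-1128000 (8 probes) and 2h:1128001-1130000 (5 probes). The first was at 1.28 and 1.74 in the mutant and 0.15 and 0.70 in wild type (adjusted p = 0.0047, limma). The second was at 1.35 and 1.35 in the mutant and 0.22 and 0.63 in wild type (adjusted p = 0.0318, limma). The pair thus rose by 1.08 and 0.92, and its changes after loess were 1.00 and 0.92. The other 4 of the 9, at 2h:1414001-1416000, 2h:426001-428000, 2h:1410001-1412000 and 2h:1460001-1462000, held 10 to 14 probes each, with mutant values between 1.22 and 1.70 and wild type values between 0.20 and 0.90. Their changes were 0.99, 0.97, 0.94 and 0.93 in that order, and 0.19, 0.23, 0.80 and 0.66 after loess. None of the 9 windows overlapped between genotypes, but they were chosen by the difference between these same samples. Of the 239 windows of 2h that were not called, 102 also had both mutant samples above both wild type samples. Input of the 9 windows differed by -0.15 to 0.18 between the genotypes, whereas their IP signal was higher in the mutant by 0.54 to 1.37.

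The 4 remaining windows had 3 or 4 probes and rest on less data. They were 2h:908001-910000, 2h:1366001-1368000, 2h:1462001-1464000 and 2h:1016001-1018000. The third of them adjoins 2h:1460001-1462000, which also passed. The first showed the largest change of any tested 2h window, at 2.31 and 2.55 in the mutant and 0.96 and 1.40 in wild type over 3 probes (adjusted p = 0.0119, limma), but after loess its change was -0.024. The other 3 had changes of 0.89 to 1.098, which were 0.17, 0.60 and 0.014 after loess in the order given.

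Some windows with large changes did not pass. The window 2h:1138001-1140000 (12 probes) was at 3.17 and 3.58 in the mutant and 2.24 and 2.35 in wild type (change 1.08 ± 0.38, SE, adjusted p = 0.304, limma). The window 2h:1196001-1198000 (17 probes) was at 2.91 and 3.34 in the mutant and 1.93 and 2.22 in wild type (change 1.05 ± 0.36, SE, adjusted p = 0.267, limma), and its change was -0.055 after loess. The window 2h:1084001-1086000 (8 probes) was at 2.25 and 2.93 in the mutant and 1.33 and 1.69 in wild type (change 1.08 ± 0.32, SE, adjusted p = 0.1, limma). The changes of the first and the third of these were 0.39 and 0.86 after loess. In these 3 windows both mutant samples also exceeded both wild type samples, and with the replicate block they had adjusted p-values of 1.48e-19, 8.08e-17 and 1.16e-14. Their SE without the block was larger than in the windows that passed, since the fit takes the variance of a window partly from its level. The median SE was 0.54 in the 22 windows with a wild type level above 4 and 0.24 in the 170 windows with a level between 0 and 2. The test without the block could thus detect a given change more readily in windows of low level. With the block the SE did not grow with the level in this way. It was 0.049 in 2h:1608001-1610000, at a wild type mean of 5.70, and 0.145 in 2h:1414001-1416000, at 0.27.

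With arrays centred on their median and no further normalization, windows with the highest levels showed no such increase. For this comparison the level of a window was taken from the wild type sample of one replicate and the change from the other replicate, since a wild type value that enters both would by itself lower the change of windows chosen as high. Of the 14 windows above 4 in wild type replicate 1, 6 were higher in the mutant in replicate 2, with a median change of -0.01. Windows of that level in the whole series were higher in the mutant in 36.9%. Of the 31 windows above 4 in wild type replicate 2, 12 were higher in the mutant in replicate 1, with a median change of -0.04, against 36.1% in the series. 2h windows of high level were thus close to other windows of that level. Of the 168 windows between 0 and 2 in wild type replicate 1, 162 were higher in the mutant in replicate 2, with a median change of 0.49, against 51.4% in the series. With the replicates exchanged this held for 137 of 159 windows, with a median change of 0.41, against 50.8%. The 5 windows with the highest wild type level and at least 5 probes were 2h:1608001-1610000, 2h:1660001-1662000, 2h:1610001-1612000, 2h:1088001-1090000 and 2h:724001-726000, with wild type means from 5.07 to 5.70 and mutant means from 4.98 to 5.54. The genotypes differed by at most 0.16 in these. Their wild type levels depended on the processing and were 0.67 to 2.11 after loess and 2.98 to 3.52 with the normexp background correction. Changes did so too: that of 2h:1608001-1610000 was -0.16, and it was 1.12 with normexp and -0.13 with loess. The window with the lowest level and at least 5 probes, 2h:1528001-1530000 (10 probes), was at -0.04 and 0.14 in the mutant and -0.21 and -0.45 in wild type (adjusted p = 0.82, limma). It was chosen for its low wild type values, which favour a positive difference.

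No decrease on 2h passed without the block. The largest among windows with at least 5 probes was in 2h:584001-586000 (14 probes), at 2.61 and 3.41 in the mutant and 2.90 and 3.43 in wild type (change -0.16 ± 0.40, SE, adjusted p = 1, limma). The 3 windows that fell with the block were 2h:1090001-1092000 (4 probes, change -0.45), 2h:1408001-1410000 (4 probes, change -0.24) and 2h:1608001-1610000 (6 probes, change -0.16), with block-adjusted p-values of 0.0249, 0.0065 and 0.0183. The first had both mutant samples, 0.75 and 0.89, below both wild type samples, 1.40 and 1.13. In the other pair the genotypes overlapped.

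The relation to the wild type level was then examined probe by probe, with the level taken from a wild type sample of one replicate and the change from the other replicate, so that no array entered both. Levels of replicate 1 were set against changes of replicate 2 first. The mean change was 0.35 at 273 probes with a level of 0 or less, 0.48 at 772 probes between 0 and 1, and 0.56 at 471 probes between 1 and 2. It was 0.48 at 298 probes between 2 and 3, 0.35 at 195 probes between 3 and 4, and 0.09 at 206 probes above 4. In the opposite arrangement it was 0.37, 0.37, 0.40, 0.37, 0.21 and 0.02 in the same order of levels. In both arrangements the change was largest between 1 and 2 and smallest above 4. The euchromatin showed no such rise, with mean changes between -0.07 and 0.08 in all 12 of its classes.

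3h and proximal 2R had the same small values at the top, with 0.08 and -0.09 (3h) and 0.09 and 0.05 (proximal 2R) above 4, where the first value is the change in replicate 2. Between 1 and 2, proximal 2R changed by 0.53 and 0.45 and 3h by 0.37 and 0.22. Between 1 and 3, 3h lay below both 2h and proximal 2R in each arrangement.

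**Figure D4:**
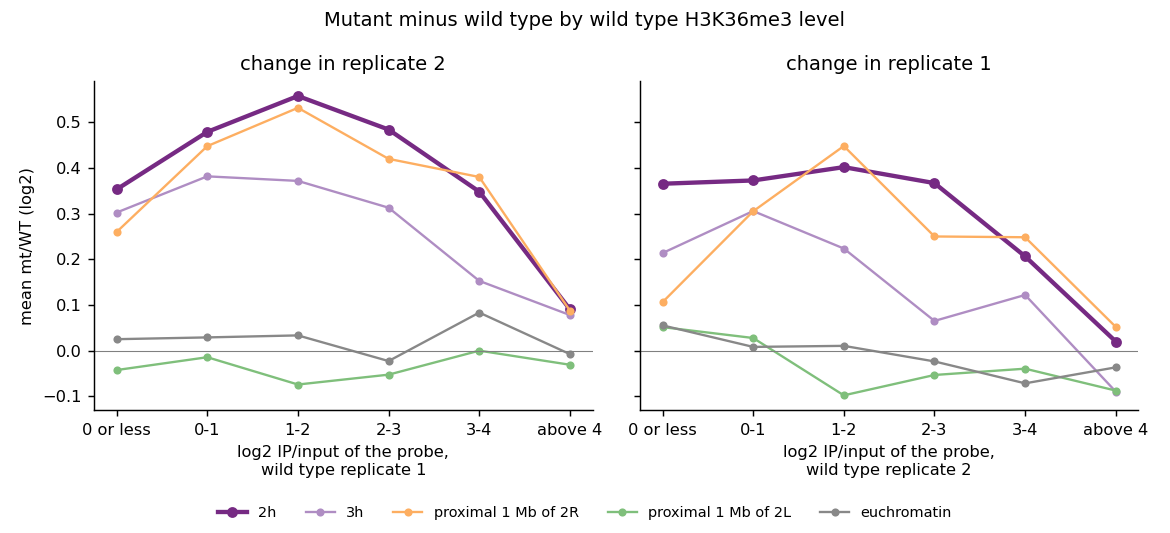
Mean mt/WT (log2, mutant minus wild type) of probes by their wild type H3K36me3 level, for 5 compartments. The level comes from wild type replicate 1 and the change from replicate 2 on the left, and the reverse on the right. On 2h the change was largest at a level between 1 and 2 (0.56 and 0.40) and smallest above 4 (0.09 and 0.02).

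This dependence on the level did not hold under every processing. Split into tertiles of the wild type level, 2h changed by 0.41, 0.54 and 0.34 from the lowest to the highest tertile in replicate 2, and by 0.36, 0.40 and 0.17 in replicate 1, so that the highest tertile changed by 0.21 less than the middle one on average. With loess the tertiles changed by 0.06, 0.29 and 0.35 in replicate 2 and by 0.09, 0.25 and 0.19 in replicate 1. With the normexp background correction the highest tertile changed the most in replicate 2, by 1.73. All tertiles were higher in the mutant in both replicates under each of the 8 settings. The settings thus differed in the order of the tertiles but not in the direction.

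Contiguous stretches of high level, with a 5-probe moving average above 2 in a wild type sample and at least 5 probes, were described separately. There were 37 of them, 94.5 kb in total, in wild type replicate 1 and 41, 112.6 kb in total, in replicate 2. The 16 stretches with a mean level of 3 or less in wild type replicate 1 had a median change of 0.54 in replicate 2, and the 8 with a level above 4 a median of -0.02. With the replicates exchanged, 16 stretches of level 3 or less had a median change of 0.49 and 14 above 4 a median of -0.06. With arrays centred on their median, stretches with the most H3K36me3 in wild type thus had a median difference between genotypes close to 0, in both arrangements.

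Increased peaks were called on the mt/WT tracks by the double threshold of the study, a procedure without an error term. On 2h it gave 39 increased and 0 decreased peaks. They held 666 probes, or 30.1% of the 2h probes, against 2.01% of all probes of the series in increased peaks and 1.65% in decreased ones. There were 17.6 increased peaks per 1000 probes on 2h, 15.9 on 3h, 12.9 on proximal 2R and 1.1 in the euchromatin, and proximal 2L had none. On the track of replicate 2 alone 72 increased and 0 decreased peaks were found on 2h, and on that of replicate 1 alone 53 and 2. The count on 2h was 5 with the thresholds taken before smoothing and 19 with loess or normexp.

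The 2h peaks had a median width of 2413 bp (659 to 11228 bp), covered 113.8 kb and had a median wild type level of 0.87. All 39 were above 0 in wild type, 6 were above 2 and 1 above 4. The increase was not limited to peaks, since the 1549 probes outside them were also higher in the mutant by 0.15 and 0.28, against 0.68 and 0.79 inside. The 13 windows that passed the test lay in 10 of the peaks.

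The peak with the largest mean mt/WT was 2h:1430510-1431502, whose 8 probes are those of the leading window. The second, 2h:518669-521803 (13 probes), was at 1.47 and 1.69 in the mutant and 0.44 and 0.56 in wild type. The third, 2h:1085056-1087468 (14 probes), was at 2.55 and 3.36 in the mutant and 1.71 and 2.11 in wild type. It lies at the edge of a stretch of high level: the adjoining window 2h:1088001-1090000 (16 probes) was at 4.77 and 5.59 in the mutant and 4.78 and 5.57 in wild type. A difference between genotypes of 0.84 and 1.25 in the peak thus stood beside one of -0.01 and 0.02 in the adjoining window. The fourth, 2h:1126455-1129747 (13 probes), was at 1.31 and 1.59 in the mutant and 0.18 and 0.67 in wild type. The fifth, 2h:1138156-1141261 (19 probes), was at 3.24 and 3.71 in the mutant and 2.43 and 2.56 in wild type. In all 5 the mutant samples lay above the wild type samples. The same held for 35 of the 39 peaks of 2h, which were called on this difference. The mean mt/WT of the 5 leading peaks was 1.20, 1.08, 1.04, 1.02 and 0.98 in that order. After loess it was 0.25, 0.69, 0.84, 0.97 and 0.31, with the fourth peak ahead, and with normexp it was 1.67, 1.05, 1.15, 0.63 and 1.80.

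**Figure D5:**
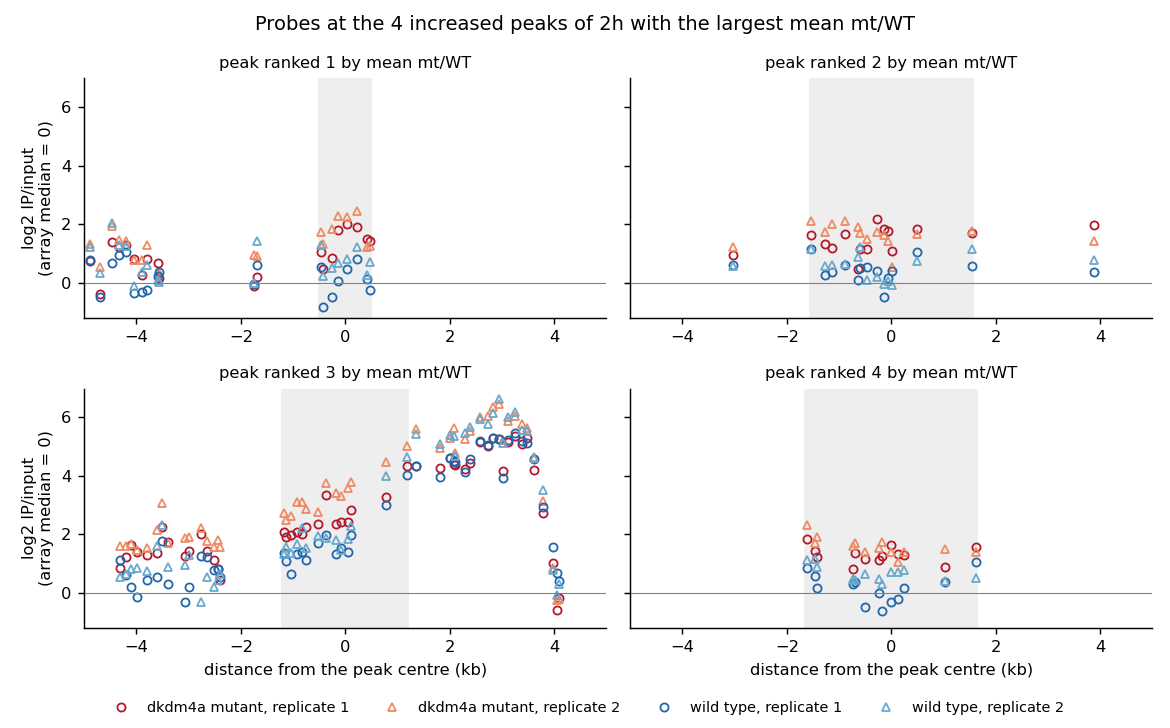
Log2 IP/input of single probes within 5 kb of the centre of the 4 increased 2h peaks with the largest mean mt/WT, in the 2 *dkdm4a* mutant samples (red, orange) and the 2 wild type samples (blue, light blue). Grey marks the peak. In the third peak the genotypes are apart inside the peak, by 0.84 and 1.25, and together in the stretch of high level to its right.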

How the data were processed

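H3K36me3 ChIP-chip of 4 samples was analysed from 8 two-colour arrays of 2 designs, and 2h lies on the first design. The authors deposited scanner intensities of Agilent Feature Extraction 10.5.1.1, whose processed signal is background-subtracted, detrended and dye-scaled with a linear factor. The authors also deposited log2 ratios, which correlated with the background-subtracted IP/input ratio of the same array (Pearson's r 0.974 to 0.985) at a constant offset of 2.63 to 2.75. They keep the direction IP over input, their centring is not stated, and the median of every column was -0.02. The deposited flags and other codes of the scanner software removed control and outlier spots. No column of another sample was used. The submitters' processing notes name limma.

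Log2 of the processed IP over input intensity was centred on the median of each array. mt/WT is mutant minus wild type of the same replicate. Windows of 2 kb with at least 3 probes from both designs (57266) were fitted with limma 3.58.1 (lmFit, eBayes with trend) in R 4.3.3. Peaks followed the study: the track was averaged over 5 probes, candidates passed 1 SD and peaks 2 SD above the mean of positive smoothed probes in 3 or more consecutive probes, gaps up to 1000 bp were bridged, peaks of the replicates had to share 1 bp, and an increased peak had to hold more positive than negative probes in the mutant (709 over the series, 870 without this filter; 39 on 2h either way). Means were compared by exact permutation. Replicate numbers mark biological replicates, which also differ in scan day. The difference between replicates correlated between genotypes over windows with r of 0.653, so the replicate block is a paired fit. Probe numbers and 2 samples per genotype limit the precision. Windows named have at least 5 probes: up to 12 with the largest increase, up to 8 with the largest decrease (the largest alone is named, since none passed), the 5 highest and the lowest wild type levels, and the 5 leading peaks. The 4 windows with 3 or 4 probes, the 3 decreased with the block and the runs and intervals were added after their values were seen. Members, lists and tests were chosen with earlier results of these data known. Placing probes on genes or sequences was not done here. Python 3.11.15, numpy 2.4.6, pandas 2.3.3 and matplotlib 3.10.9 were used.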

Additional observations from a re-analysis of the deposited data

How the results depend on the processing

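The mean level of 2h above the euchromatin in wild type, its mt/WT change and its change relative to the euchromatin kept their sign under every setting tried. Against 0.88, the level was 0.28 with normexp background correction and 0.69 with loess. Against 0.37, the change of 2h was 0.79 with normexp, 0.20 with loess and 0.46 with arrays scaled by their median absolute deviation, and 0.14 to 0.60 when a sample was left out. Relative to the euchromatin the change was 0.54 with normexp and 0.18 with loess, against 0.35, and 0.21 to 0.49 when a sample was left out. The difference of the highest from the middle tertile of level, set against 7 settings that were chosen after seeing the data, was -0.21; it turned to 0.87 with normexp and 0.0008 with loess, and was -0.10 with scaled arrays and -0.18 with the deposited log2 ratios.

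The 13 increased 2h windows became 33 with normexp, 0 with loess, 32 without centring, 45 with scaled arrays, 1 with the deposited log2 ratios, 5 in 1 kb windows with 2 probes and 0 in a fit without the variance trend (77 at an unadjusted p under 0.05). With the replicate block 125 rose and 3 fell. Leaving out a sample gave 0 to 4. The count of decreased windows stayed 0 under all other settings. The 9 named windows that passed were higher in the mutant in every setting with 2 kb windows. They were all past the threshold without centring, with either filter on the input, with scaled arrays and with the block, 4 of them with normexp, 1 with the deposited log2 ratios and 0 with loess. The 39 increased peaks became 19 with normexp, 19 with loess and 5 with the mean and SD taken before smoothing, and 53 and 72 on the tracks of replicate 1 and of replicate 2. Decreased peaks on 2h numbered 2 on the track of replicate 1 alone and 0 under the 9 other alternatives run for them.

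Single windows changed sign as follows. With loess 2h:1196001-1198000 was at -0.055, 2h:908001-910000 at -0.024 and 2h:584001-586000 at 0.075. With normexp 2h:584001-586000 was at 0.77, 2h:1408001-1410000 at 0.71 and 2h:1608001-1610000 at 1.12, and with scaled arrays 2h:1608001-1610000 was at 0.12. Leaving out samples moved 2h:584001-586000 between -0.56 and 0.24, 2h:1408001-1410000 between -0.80 and 0.32 and 2h:1608001-1610000 between -0.67 and 0.35. The cause of these changes was not tested. No 2h spot was saturated, and 91.7% to 96.5% of the IP spots on 2h were well above background; ratios of dimmer spots are less precise.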
